A study of Mus musculus with 4 samples.

Results

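The comparison described here sets the H3K9me3 chromatin immunoprecipitation library of MDER 10T cells against the whole-cell extract (WCE) library of the same cells, to measure over what length of genome the mark varies. These are 2 of the 4 libraries of the series, and the H3K27me3 and H3K4me3 libraries appear only as values side by side. MDER 10T cells are fibroblasts of the mouse in which MyoD1, a transcription factor of muscle differentiation, can be induced by estrogen, per the series title. The labels name no estrogen treatment and no differentiation, and do not state that there was none. They give growth in DMEM/F12 without phenol red and with 10% FCS for all libraries. The H3K9me3 group is 1 library made with Abcam antibody AB8898, and the WCE group is 1 library made with no antibody. With 1 library per group there is no replicate spread, and any test on their reads sets one library against another rather than conditions against each other.

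H3K9me3 is trimethylation of lysine 9 of histone H3. It is written by methyltransferases such as SUV39H1 and SETDB1 and read by HP1 proteins, which bind it and help to compact chromatin. The mark is known for wide stretches of constitutive heterochromatin, above all the satellite repeats around centromeres, and for silenced retrotransposons and clusters of zinc finger genes. Highly repeated sequence was dropped when the reads were aligned, so the satellite repeats are not measured here.

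After reads at the same position and strand were counted once, the autosomes held 2101444 H3K9me3 reads and 2977697 WCE reads. H3K9me3 reads therefore made up 41.4% of the reads of both libraries, and this share is the level against which every tile of the genome was set. A ratio is the number of H3K9me3 reads over the number of WCE reads, scaled to equal autosomal totals, so that 1 is the autosomal level. The mean tile of 4 kb held 3.41 H3K9me3 and 4.84 WCE reads, the mean tile of 100 kb held 85.3 and 121, and the mean tile of 1 Mb held 850.1 and 1205. Intervals are 95% exact (Clopper-Pearson) limits and cover counting error only, because reads amplified by PCR and lacking molecular identifiers need not be separate molecules.

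The H3K9me3 ratio varied by small amounts at every tile length, and a large part of that variation was carried by long regions. The spread beyond counting error is the SD between tiles that is left after the binomial variance of the read counts has been subtracted, written on the scale of the log2 ratio. It was 0.45 at 4 kb, 0.40 at 10 kb, 0.34 at 50 kb, 0.32 at 100 kb, 0.28 at 500 kb and 0.26 at 1 Mb. An SD of 0.45 is a 1.37-fold difference, and an SD of 0.26 is a 1.197-fold difference. On the scale of the share, the SD was 7.57 percentage points at 4 kb and 4.37 percentage points at 1 Mb. Tiles of 1 Mb thus kept 33.2% of the variance seen at 4 kb, and tiles of 100 kb kept 51.6%. The decline below 50 kb did not hold when the estimator and the tiles kept were both changed. Taken from log2 ratios with 1 read added, in tiles with at least 10 WCE reads only, the spread was 0.20 at 4 kb, 0.35 at 10 kb, 0.34 at 50 kb and 0.28 at 1 Mb. The 4 kb value then lay below the 1 Mb value, and the shares kept do not hold there. That limit on reads keeps unlike sets of tiles, since the median tile held 4 WCE reads at 4 kb and 1155.5 at 1 Mb.

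Counting error set how much of this could be seen in any single tile. At 4 kb the observed SD of the log2 ratio was 1.03, of which counting alone gives 0.93, so 19.1% of the variance lay beyond counting. That part was 29.6% at 10 kb, 59.7% at 50 kb, 72.8% at 100 kb, 90.9% at 500 kb and 94.4% at 1 Mb. Variation exceeded counting error between 10 kb and 50 kb, so below that length a single tile of this library mostly shows its own counting error.

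The estimate rests on subtracting a binomial variance, and reads of the forward and reverse strands give a value that does not. The covariance between the deviations of the forward-strand and the reverse-strand reads of the same tile, which share no reads, gave 0.46 at 4 kb, 0.32 at 100 kb and 0.26 at 1 Mb. To check the subtraction within 1 library, WCE forward-strand reads were set against WCE reverse-strand reads. Their variance beyond counting was slightly below 0, between -3.50 and -0.0136 on the scale of the squared share times 10000, where the H3K9me3 variance against WCE was 57.4 at 4 kb and 19.1 at 1 Mb. H3K9me3 forward against H3K9me3 reverse reads gave values between -0.121 and 0.553 over the 6 tile lengths. The strands of a library share its preparation, so these values leave out any bias between the H3K9me3 and WCE libraries. That bias was not measured.

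Of the 3 marks set against WCE, H3K9me3 had the lowest spread at all 6 tile lengths. At 4 kb the values were 0.45 for H3K9me3, 0.71 for H3K27me3 and 1.31 for H3K4me3. At 1 Mb they were 0.26, 0.41 and 0.62 in the same order. The share of the 4 kb variance kept at 10 kb was 78.2% for H3K9me3, 92.3% for H3K27me3 and 88.1% for H3K4me3. At 100 kb it was 51.6%, 65.6% and 45.3%, and at 1 Mb 33.2%, 33.1% and 22.1%, in the same order. By this estimator H3K9me3 thus lost the most between 4 kb and 10 kb, a step that depends on the tiles kept. Without tiles under 0.5 times the median WCE reads, its spread by the same estimator was 0.400 at 4 kb and 0.394 at 10 kb. Without that limit, the covariance between strands gave 0.46 and 0.40, and equal weight per tile gave 0.47 and 0.42. The other marks were not measured without tiles low in WCE, so their order at this step may not hold. H3K27me3 marks genes silenced by Polycomb and H3K4me3 marks active promoters. These comparisons share the WCE library and each mark has 1 library, so the differences between marks were not tested. With H3K4me3 in place of WCE as the control, the spread of H3K9me3 was 1.31 at 4 kb and 0.60 at 1 Mb, close to the values of H3K4me3 itself against WCE.

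Autosomes differed in how strongly the ratio varied along them. At 1 Mb, the lowest spread of H3K9me3 was 0.16 on chromosome 19, the median 0.25 and the highest 0.37 on chromosome 4. At 4 kb the same chromosomes were at the ends, with 0.38 on chromosome 19 and 0.55 on chromosome 4, around a median of 0.44. The H3K9me3 spread on the most variable autosome exceeded the H3K27me3 spread on its least variable autosome at 1 Mb, which was 0.36 on chromosome 7, while at 100 kb the ranges of these marks did not overlap.

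**Figure D1:**
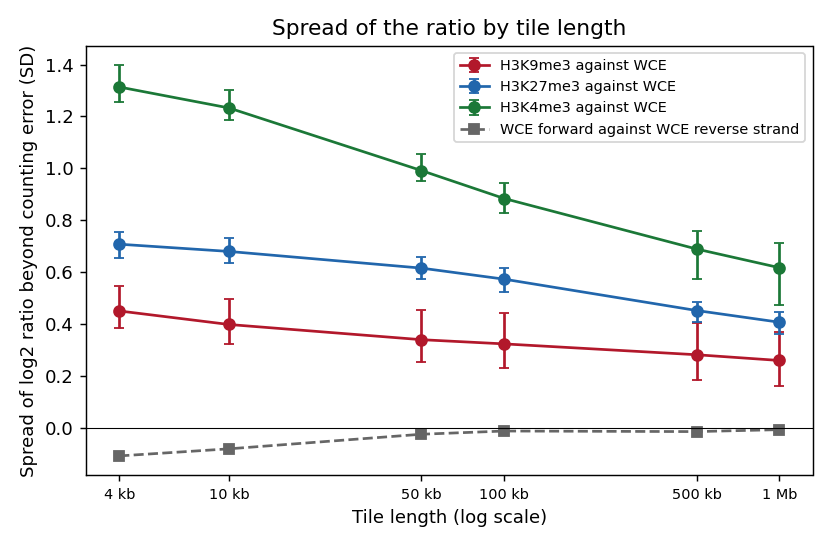
Spread of the log2 ratio beyond counting error (SD, vertical axis) against tile length (horizontal, log scale) for H3K9me3, H3K27me3 and H3K4me3 against WCE, with whiskers from the lowest to the highest autosome, and for WCE forward against WCE reverse strand. The H3K9me3 line lies lowest of the marks, from 0.45 at 4 kb to 0.26 at 1 Mb, and the WCE strand line lies at or slightly below 0 (a negative variance is drawn as a negative root). The WCE strand line holds no bias between libraries.

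Neighbouring stretches of the genome had like H3K9me3 ratios over long distances. Covariance between tiles shows this without any correction, since different tiles share no reads. Between adjoining 4 kb tiles it was 60.6% of the variance between 4 kb tiles beyond counting error. At 8 kb it was 53.6%, at 20 kb 50.9%, at 40 kb 47.2%, at 100 kb 40.2% and at 200 kb 36.2%. It was still 28.4% at 500 kb, 21.8% at 1000 kb, 16.3% at 2000 kb and 10.3% at 5000 kb. These are descriptions over pairs of tiles of the same 2 libraries, from 615593 pairs at 4 kb to 148557362 pairs around 5000 kb.

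The decay had a steep part over a few kilobases and then a slow one. With 1 kb tiles, the covariance was 84.2% of the 4 kb variance at 1 kb, 67.3% at 2 kb and 59.6% at 3 kb. Beyond 8 kb it fell gradually, with no sharp drop. It passed 50% of its value at 4 kb at a distance of 375 kb. Within single autosomes that distance was lowest on chromosome 19 (53.5 kb), had a median of 329 kb and was highest on chromosome 5 (885 kb). Starting from 10 kb tiles and their value at 10 kb, it was 577 kb. With the H3K27me3 library in place of WCE it was 85.0 kb, and with H3K4me3 7.77 kb, values that also hold the variation of those marks. All 19 autosomes had a positive covariance at each distance given up to 2000 kb, 18 had one at 5000 kb and 15 at 20000 kb, and at 50000 kb the pooled value was -1.65% of the variance, with 7 autosomes above 0.

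Between marks the order of the decay depends on the level it is set against. Relative to the variance at 4 kb, H3K27me3 had 86.3% at 4 kb, 65.5% at 20 kb, 53.4% at 40 kb and 36.2% at 100 kb, above H3K9me3 up to 40 kb and below it at 100 kb. H3K4me3 had 33.5% at 4 kb and 11.7% at 100 kb. Relative to the covariance between adjoining 4 kb tiles, which leaves out the loss at shorter distances, the other marks decayed sooner than H3K9me3. H3K27me3 passed 50% of its value at 4 kb at 67.4 kb, with autosomes between 51.4 and 86.8 kb, and H3K4me3 did so at 7.88 kb, with autosomes between 7.13 and 13.95 kb. The H3K9me3 and H3K4me3 ranges did not overlap, while the H3K9me3 range reached down into that of H3K27me3. At 500 kb, 46.8% of the covariance at 4 kb remained for H3K9me3, 27.3% for H3K27me3 and 22.9% for H3K4me3. The difference between marks was not tested, since the comparisons share WCE.

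**Figure D2:**
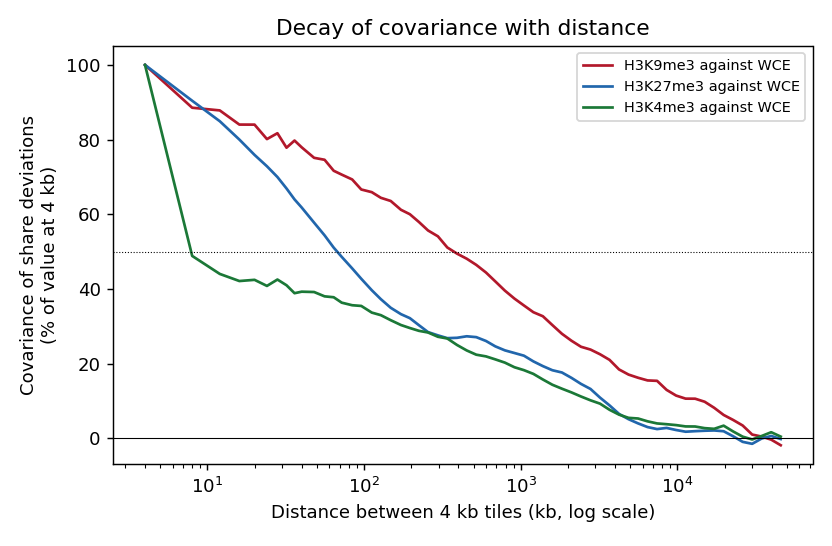
Covariance of the share between 4 kb tiles (vertical axis, percent of the value at 4 kb) against their distance (horizontal, kb, log scale) for the marks against WCE. The dotted line marks 50%, which the curves cross at 375 kb for H3K9me3, 67.4 kb for H3K27me3 and 7.88 kb for H3K4me3.

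Very few tiles of 4 kb or 10 kb could be told apart from the autosomal level, and several percent of the longer ones could. Short tiles hold few reads, so the share called at each length does not measure how much the ratio varies there. Each tile was tested with a two-sided exact binomial test, adjusted over all tiles of its length (Benjamini-Hochberg), and called at an adjusted p under 0.05 with a ratio of at least 1.5 or at most its inverse. At 4 kb, 98 of 555725 tiles (0.0176%) were higher and 1 (0.000180%) was lower. At 10 kb, 332 of 233554 (0.142%) were higher and 20 (0.00856%) lower. At 50 kb, 1313 of 47456 (2.77%) were higher and 684 (1.44%) lower. The counts at the 2 shortest lengths moved by more than 1.5 times with the procedure, between 49 and 169 called tiles at 4 kb and between 149 and 691 at 10 kb with WCE as the control. At an adjusted p under 0.01, 991 tiles of 50 kb and 1235 of 100 kb were called in both directions together.

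Called tiles were most frequent between 100 kb and 500 kb. At 100 kb, 938 of 23821 tiles (3.94%) were higher and 1165 (4.89%) lower, covering 93.8 Mb and 116.5 Mb. At 500 kb, 160 of 4802 (3.33%) were higher and 245 (5.10%) lower, and at 1 Mb 66 of 2412 (2.74%) and 86 (3.57%). Without the condition on the ratio, the called share went on growing with length, from 1341 higher (5.63%) and 1268 lower (5.32%) tiles of 100 kb to 700 higher (14.6%) and 1248 lower (26.0%) tiles of 500 kb and 461 higher (19.1%) and 843 lower (35.0%) tiles of 1 Mb. The balance of higher and lower calls rests on the scaling. When the median ratio of 100 kb tiles was set to 1 instead of the totals, 1256 tiles of 100 kb were higher and 775 lower, 206 and 137 of 500 kb, and 83 and 46 of 1 Mb.

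The reads in called tiles were a small part of the library at every length. Higher tiles of 100 kb held 6.999% of H3K9me3 reads and 3.73% of WCE reads, a pooled ratio of 1.87. Lower tiles of 100 kb held 2.37% of H3K9me3 reads and 4.30% of WCE reads, a ratio of 0.550. These ratios were used to call the tiles and describe them only. Over all 100 kb tiles with at least 0.5 times the median WCE reads, the ratio ran from 0.586 at the 5th percentile through a median of 0.952 to 1.48 at the 95th, and at 1 Mb from 0.701 through 0.966 to 1.33.

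**Figure D3:**
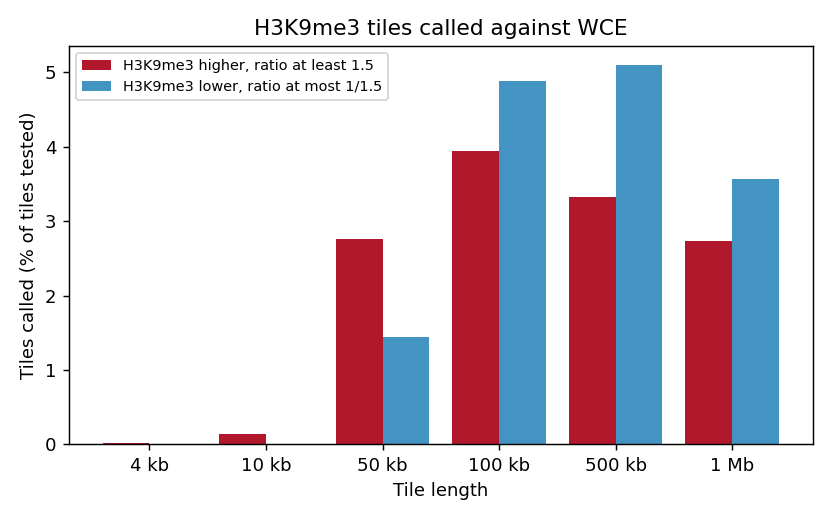
Percent of tiles called higher or lower for H3K9me3 than WCE (vertical axis) at 6 tile lengths (horizontal). Almost no tile is called at 4 kb and 10 kb, where tiles hold few reads. The bars are tallest at 100 kb for higher tiles (3.94%) and at 500 kb for lower tiles (5.10%).

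Tiles were ranked on forward-strand reads and measured on reverse-strand reads, which leaves out the noise that ranking selects. Where forward reads are few, tiles are ranked poorly, and this pulls the reverse-strand ratio towards the autosomal level. The values below therefore do not compare the size of the difference between tile lengths. The 5% of tiles with the highest forward-strand ratio had a reverse-strand ratio of 1.24 (1.23 to 1.254) at 4 kb and 1.246 (1.23 to 1.26) at 10 kb. It was 1.57 (1.55 to 1.59) at 50 kb, 1.68 (1.66 to 1.697) at 100 kb, 1.66 (1.65 to 1.68) at 500 kb and 1.55 (1.54 to 1.57) at 1 Mb. The forward ratio of the same tiles, which chose them, was 11.6 at 4 kb, far above the reverse-strand value, and 1.58 at 1 Mb, close to it.

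The tiles at the other end behaved alike. The lowest 5% by forward-strand ratio had a reverse-strand ratio of 0.856 at 4 kb, 0.784 at 10 kb, 0.719 at 50 kb, 0.705 at 100 kb, 0.686 at 500 kb and 0.676 (0.665 to 0.688) at 1 Mb. At 4 kb and 10 kb ties in the few forward reads made these groups 5.82% to 7.74% of tiles. Both ends were measured in reads that had no part in choosing the tiles.

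**Figure D4:**
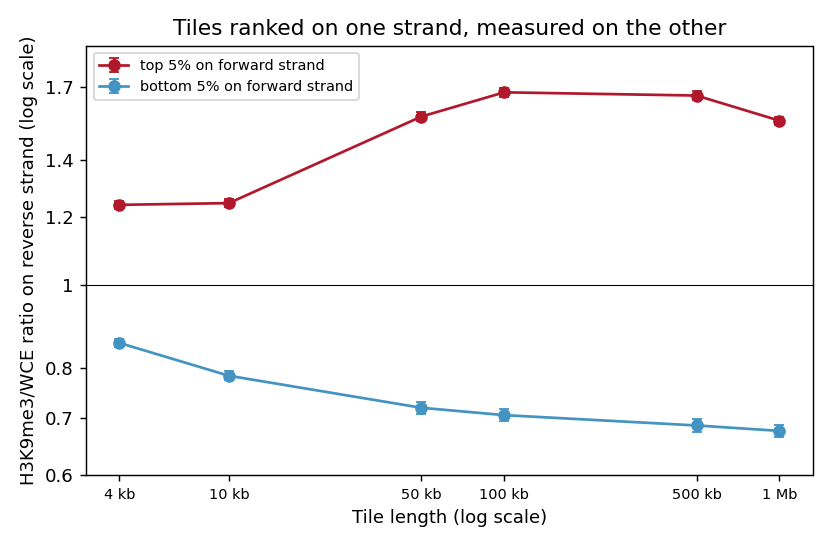
H3K9me3 over WCE ratio on the reverse strand (vertical axis, log scale) of the tiles in the top and bottom 5% by forward-strand ratio, against tile length (horizontal, log scale), with 95% exact intervals. The top line reaches 1.68 at 100 kb and the bottom line falls to 0.676 at 1 Mb. Short tiles are ranked on few reads, which pulls their values towards the autosomal level.

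In these tiles the WCE density moved as well as the H3K9me3 density, and in different proportions at different lengths. In the 1190 highest 100 kb tiles, reverse-strand H3K9me3 reads were at 1.23 times their mean over all tiles and WCE reads at 0.734 times theirs. H3K27me3 reads were at 0.694 and H3K4me3 reads at 0.516 times their means. In the 121 highest 1 Mb tiles, H3K9me3 was at 1.44, WCE at 0.929, H3K27me3 at 0.922 and H3K4me3 at 0.780. At 1 Mb the high ratio thus came with more H3K9me3 reads and near-average WCE reads, and at 100 kb with a fall of WCE below average that H3K9me3 reads did not share. Sparse tiles have noisier forward ratios and so reach both ends of the ranking more readily. WCE was also low, at 0.571, in the lowest 100 kb tiles. The part of the ranking in the fall of WCE was not tested.

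The profile around the highest 100 kb tiles shows the same. At the ranked tile the mean was 54.3 H3K9me3 and 46.0 WCE reverse-strand reads per tile. At 1000 kb towards higher coordinates it was 52.9 and 64.5, and towards lower coordinates 52.0 and 64.8. The H3K9me3 density was nearly level over these distances, while the WCE density dipped around the tile, a dip to which the ranking itself may add. The ratio was 1.16 and 1.14 at 1000 kb on the higher- and lower-coordinate sides, and still 1.07 and 1.05 at 5000 kb.

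Around the lowest 100 kb tiles both libraries were sparse. The ranked tiles held a mean of 17.8 H3K9me3 and 35.7 WCE reverse-strand reads, which is 0.403 and 0.571 times the mean of all tiles. At 1000 kb on the higher-coordinate side these were 28.0 and 45.9 reads, and the ratio was 0.866. H3K27me3 and H3K4me3 in the lowest tiles were at 0.356 and 0.317 times their means, so all 4 libraries were thin there.

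**Figure D5:**
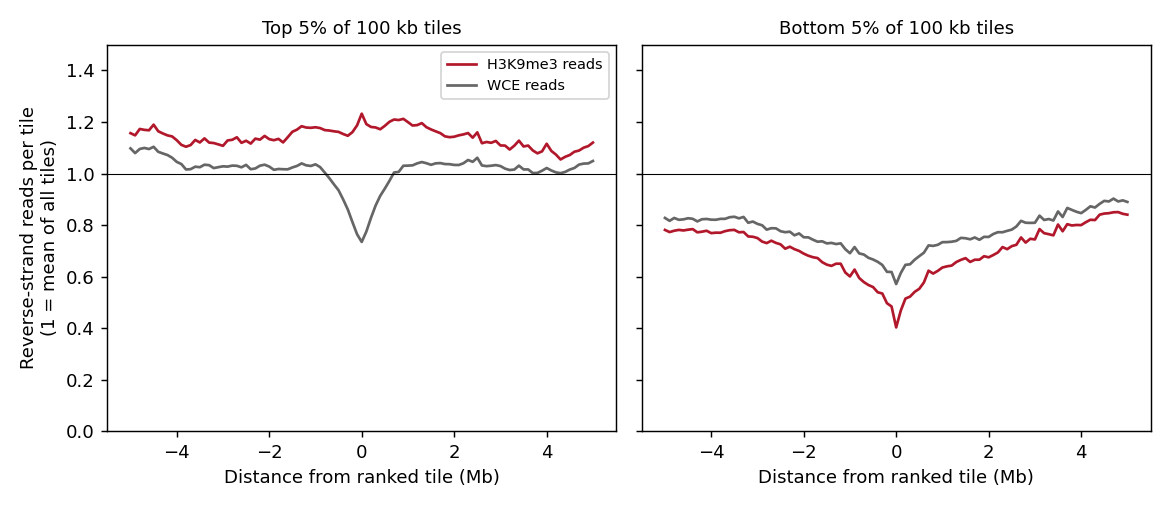
Reverse-strand reads per 100 kb tile (vertical axis, 1 is the mean of all tiles) of H3K9me3 and WCE against distance (horizontal, Mb) from the tiles in the top 5% (left) and bottom 5% (right) by forward-strand ratio. On the left the WCE line dips to 0.734 at the ranked tile while H3K9me3 is at 1.23 there, and on the right both lines dip, H3K9me3 to 0.403 and WCE to 0.571. Sparse tiles reach both ends of the ranking more readily, and the part of this in the dips was not tested.

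Input density itself moved with the ratio. When 100 kb tiles were put in 5 classes by their forward-strand WCE reads, and the ratio was taken from all H3K9me3 reads and the reverse-strand WCE reads, it was 0.858 (0.851 to 0.865) in the sparsest class and 1.05 (1.04 to 1.05) in the densest. The classes between had 0.914, 0.996 and 1.02. The spread beyond counting within a class was 0.28 in the sparsest class, 0.42 in the next class and in the middle one, 0.32 in the fourth and 0.20 in the densest. The part of WCE density, base composition or mappability in the ratio was not tested, since no sequence of the mm8 build was used.

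Most tiles called higher lay in regions whose other reads were also above the autosomal level. For each called tile the ratio of the rest of its 1 Mb region was taken, without the tile. Around the 98 higher 4 kb tiles the rest of the region had a median ratio of 1.16 (interquartile range 1.02 to 1.32), and it was above 1 for 78 of them (79.6%), against 38.5% of all 4 kb tiles tested. Around the 332 higher 10 kb tiles the median was 1.43 (1.13 to 1.81), above 1 for 299 (90.1%), against 37.7% of all 10 kb tiles. Around the 938 higher 100 kb tiles it was 1.33 (1.17 to 1.60), above 1 for 886 of 937 with enough reads (94.6%). Around the 1165 lower 100 kb tiles it was 0.786, above 1 for 99 (8.50%), and over all 100 kb tiles 37.8% were above 1. The set of all tiles was not matched to the called ones for reads. Short tiles are called only with enough reads, and the ratio was higher where WCE was denser. The part of this in the contrast was not tested.

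Called 100 kb tiles joined into longer runs when they were higher than when they were lower. The 938 higher tiles formed 416 runs with a mean length of 225 kb, of which 255 were a single tile, and runs of 3 or more tiles held 59.8% of them. The 1165 lower tiles formed 959 runs with a mean length of 121 kb, of which 801 were a single tile, and runs of 3 or more held 10.3%. Lower tiles held fewer H3K9me3 reads, and the part of this in the shorter runs was not tested. Higher 100 kb tiles were most frequent on chromosome 5, with 120 of 1463 (8.20%), and least on chromosome 3, with 23 of 1564 (1.47%).

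The longest higher run covered 2000 kb of chromosome 15, from 86400001 to 88400000 in the mm8 build. It held 4110 H3K9me3 reads against 2821 of WCE (ratio 2.06, 1.97 to 2.17). The next covered 1900 kb of chromosome 5 from 127400001 to 129300000, with 2763 H3K9me3 and 1855 WCE reads (2.11, 1.99 to 2.24). The third covered 1400 kb of chromosome 2 from 178400001 to 179800000, with 3374 and 2056 reads (2.33, 2.20 to 2.46). The H3K27me3 reads in these runs numbered 2364, 1631 and 1932, and the H3K4me3 reads 1921, 1446 and 1572, each from a deeper library than H3K9me3. The longest lower runs reached 500 kb, on chromosome 2 from 114300001 to 114800000 with 283 H3K9me3 and 700 WCE reads (0.573, 0.497 to 0.659), and on chromosome 6 from 110800001 to 111300000 with 224 and 583 reads (0.544). Positions were not assigned to genes, because the gene table used here is of another build, so exons, introns and promoters are not given.

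The tiles with the highest and lowest ratios show what the range of the mark looks like at each length. They were chosen for their ratios, among tiles with at least 0.5 times the median WCE reads, and no test is given. At 50 kb the highest was chromosome 2 from 172450001 to 172500000, with a ratio of 3.75 (2.85 to 4.97) from 193 H3K9me3 and 73 WCE reads. Next came chromosome 2 from 179400001 to 179450000, with 165 and 63 reads (3.71, 2.76 to 5.04). Chromosome 14 from 13100001 to 13150000 had 123 H3K9me3 and 49 WCE reads (3.56) and also 190 H3K4me3 reads, the most of the 5 highest tiles.

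At 100 kb the highest tile, chromosome 2 from 172400001 to 172500000, held 350 H3K9me3 and 142 WCE reads (3.49, 2.87 to 4.28), and contains the highest 50 kb tile. Its H3K9me3 reads were 170 on the forward and 180 on the reverse strand. Chromosome 4 held the next 3, from 153100001 to 153200000 (306 H3K9me3 and 134 WCE reads, 3.24), from 151600001 to 151700000 (229 and 102, 3.18) and from 141400001 to 141500000 (278 and 124, 3.18). The fifth was the start of the mapped sequence of chromosome 3, from 3000001 to 3100000, with 181 H3K9me3 and 81 WCE reads (3.17, 2.42 to 4.17). Without the 4 kb windows called for any mark, this tile was at 2.30 (1.57 to 3.42), below that interval.

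At 500 kb the highest tile was chromosome 5 from 113000001 to 113500000, with 1219 H3K9me3 and 582 WCE reads (2.97, 2.69 to 3.28), where the whole megabase from 113000001 had 2.19. Chromosome 4 again held the next 3, from 153000001 to 153500000 (1303 and 701 reads, 2.63), from 130500001 to 131000000 (979 and 539, 2.57) and from 152000001 to 152500000 (1122 and 621, 2.56). Chromosome 5 from 128000001 to 129000000 was the fifth highest megabase, with 1384 H3K9me3 and 903 WCE reads (2.17, 1.996 to 2.36). The highest ratio was 3.75 at 50 kb and 2.25 at 1 Mb, with lower limits of 2.85 and 2.10. It was picked from 39816 tiles of 50 kb and from 2093 of 1 Mb, and shorter tiles hold fewer reads. The intervals do not allow for that choice, so these values do not measure how the range changes with length.

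The lowest ratios belonged to sparse tiles and were less precise. At 50 kb, chromosome 1 from 144600001 to 144650000 held 1 H3K9me3 and 27 WCE reads (0.0525, 0.00128 to 0.318). At 100 kb, chromosome 16 from 43000001 to 43100000 held 18 H3K9me3 and 98 WCE reads (0.260, 0.148 to 0.433), and its H3K9me3 reads were uneven between strands, with 3 forward and 15 reverse. At 500 kb, chromosome 14 from 96500001 to 97000000 held 115 and 364 reads (0.448, 0.360 to 0.554), and the megabase from 96000001 that contains it was the lowest at 1 Mb, with 256 and 702 reads (0.517, 0.446 to 0.597). Chromosome 17 from 59000001 to 60000000 held 364 H3K9me3 and 950 WCE reads (0.543), and its lower-coordinate 500 kb tile 163 and 467 (0.495). Against H3K27me3 in place of WCE, the chromosome 16 tile was at 0.811 (0.427 to 1.49). Both chromosome 17 tiles were then above 1, at 1.13 and 1.10, with intervals that include 1.

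Whole chromosomes differed little. Between the 19 autosomes the SD of the log2 ratio beyond counting was 0.06, which is 1.59% of the variance at 4 kb. Chromosome 5 was highest, with 121070 H3K9me3 and 160438 WCE reads (ratio 1.07, 1.06 to 1.08), and chromosome 17 next, with 99059 and 132778 reads (1.06). Chromosome 3 was lowest, with 93252 and 144052 reads (0.917, 0.910 to 0.925). Against H3K27me3 in place of WCE, chromosome 3 was on the other side of 1, at 1.04, and scaling by the median of 100 kb tiles moved 9 other chromosomes from below 1 to above it, so neither the order nor the side of 1 holds for all chromosomes. With each chromosome centred on its own share, the spread was 0.45 at 4 kb, 0.32 at 100 kb and 0.25 at 1 Mb.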

How the data were processed

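ChIP-seq reads of 1 H3K9me3 and 1 WCE library were used, with 1 H3K27me3 and 1 H3K4me3 library beside them. Per the labels' protocols, sonicated chromatin had fragments of 500 bp on average, and the DNA was amplified for 18 cycles and cut from a gel at 150 to 350 bp. The deposited files list signed positions, a minus sign marking the reverse strand. Per the file headers, reads were aligned to mm8 with Bowtie (options e 70, k 2, m 2, n 2, l 36), and reads with 1 reported position are listed apart from reads with 2. Repeats were still present (8.40% of H3K9me3 and 6.38% of WCE reads with 1 position). Here reads were counted once per position and strand, moved 60 bp along their strand and tallied in tiles on 19 autosomes.

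The variance of the share between tiles was estimated from factorial moments, which removes binomial variance, with tiles of at least 2 reads weighted by their reads, and converted to the log2 scale at the autosomal share. Covariances weight a tile by the root of its reads and are centred on the mean share under that weight. Each distance from 20 kb averages lags within 10%. The spread weighted by reads, the covariance and the calls were run on simulated reads, drawn at random without PCR repeats. The log2 ratio and strand estimates were not part of that check. Named tiles are the 5 highest and 5 lowest at 50 kb, 100 kb, 500 kb and 1 Mb and the 3 longest runs each way, of which examples are printed. The members and rules were chosen with earlier results of these data known. Alternatives changed repeats, shift, scaling, weights, control, estimator, grid and thresholds. The work used matplotlib 3.10.9 and scipy 1.17.1 with numpy 2.4.6, under Python 3.11.15.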

Additional observations from a re-analysis of the deposited data

Results flagged for a closer look

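Reads with 2 reported positions, which stand outside the tiles above, were more frequent in H3K9me3 than in WCE. Relative to reads with 1 position, H3K9me3 had 1.18 times the autosomal lines of WCE. It was flagged because these data enter no comparison above and lie over the level of the control library. The value was above 1 on all 19 autosomes, from 1.11 on chromosome 17 to 1.30 on chromosome 10. Both positions of these reads are listed, so their lines are not independent, and the difference was not tested.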

How the results depend on the processing

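Of 66 alternatives for the spread, 49 stayed within 1 SD of the values of single autosomes. That SD holds differences between chromosomes and is only a yardstick, since there is no replicate spread. The other alternatives were as follows. With all reads kept, the spread was 0.58 at 4 kb and 0.46 at 10 kb. Computed from log2 ratios in tiles with at least 10 WCE reads it was 0.20 and 0.35, so that the value at 4 kb fell below that at 1 Mb (0.28), and without tiles low in WCE 0.40 at 4 kb. The limit of 10 WCE reads keeps unlike sets of tiles at 4 kb and 1 Mb. The cause of these shifts was not tested. With H3K27me3 as the control it was 0.64 at 4 kb, 0.62 at 10 kb, 0.56 at 50 kb, 0.53 at 100 kb, 0.42 at 500 kb and 0.37 at 1 Mb, and with H3K4me3 1.31, 1.23, 1.01, 0.91, 0.69 and 0.60. These ratios also hold the variation of the control mark by construction. The distance at which covariance passes 50% of its value at 4 kb was 85.0 kb with H3K27me3 and 7.77 kb with H3K4me3, and between 337 and 577 kb in the other 6 alternatives, with 471 kb without the 16701 windows of 4 kb called for any mark.

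Called tiles in both directions numbered 99 at 4 kb, 352 at 10 kb, 1997 at 50 kb, 2103 at 100 kb, 405 at 500 kb and 152 at 1 Mb. With all reads kept they were 169 at 4 kb and 691 at 10 kb, and with scaling by the median of 100 kb tiles 157 and 576. At an adjusted p under 0.01 they were 49 at 4 kb, 149 at 10 kb, 991 at 50 kb and 1235 at 100 kb. At a lower threshold for the ratio they were 1267 at 500 kb and 591 at 1 Mb. Against H3K27me3 they were 1380 at 4 kb, 4602 at 10 kb, 8843 at 50 kb, 6049 at 100 kb, 1135 at 500 kb and 443 at 1 Mb. The other 20 of 36 alternatives stayed within 1.5 times.

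Against H3K27me3, 18 of the 40 named tiles moved outside their interval against WCE and 22 stayed within it. Of the 40, 5 tiles, all among the lowest, moved above 1 with intervals that include 1. They were the 500 kb tiles of chromosome 17 from 59000001 (1.10) and chromosome 14 from 92000001 (1.07), and the 1 Mb tiles of chromosome 7 from 94000001 (1.18), chromosome 17 from 59000001 (1.13) and chromosome 16 from 79000001 (1.03). Other low tiles stayed below 1 with intervals that include 1, such as the 100 kb tile of chromosome 16 from 43000001 (0.811, 0.427 to 1.49). No named tile crossed 1 in the other 4 alternatives. In these only 1 left its interval, the 100 kb tile of chromosome 3 from 3000001, at 2.30 (1.57 to 3.42) without the called windows. Of the chromosome ratios, the following moved to the other side of 1 with their whole interval. Scaling by the median of 100 kb tiles, a log2 shift of the reference of -0.08, put chromosomes 1 (1.02), 2 (1.05), 6 (1.03), 10 (1.01), 13 (1.04), 14 (1.01), 16 (1.01), 18 (1.05) and 19 (1.04) above 1. Against H3K27me3, chromosomes 3 (1.04), 10 (1.02), 13 (1.04), 16 (1.08) and 18 (1.03) lay above 1, and chromosomes 9 (0.974) and 11 (0.910) below. Chromosomes 1 (1.01) and 7 (0.999) also crossed 1 against H3K27me3, and chromosome 15 (0.999) without the called windows, with intervals that include 1. At 4 kb and 10 kb the depth limits what single tiles show. No paired analysis was possible because each group holds 1 library.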

Other observations

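The X chromosome, left out above, had a spread of the H3K9me3 ratio beyond counting of 0.47 at 4 kb, 0.26 at 100 kb and 0.17 at 1 Mb, from 37440 H3K9me3 and 65679 WCE reads. The autosomes ranged from 0.16 to 0.37 at 1 Mb.

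The ratio of reads with 2 positions had a spread of 0.92 at 4 kb, 0.49 at 100 kb and 0.33 at 1 Mb, from 146086 H3K9me3 and 175201 WCE lines on the autosomes, where reads with 1 position had 0.45, 0.32 and 0.26. Both lines of a read can fall in the same tile, so the binomial variance subtracted may leave out part of the counting error. The 2 sets of values are therefore not alike, and their difference was not tested.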
